A study of Mus musculus with 24 samples.

Results

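The genes described here lie between 32.5 and 37.3 Mb of mouse chromosome (Chr) 17 and were chosen by position. Of the 13998 genes in the deposited expression table, 127 have their first transcript start in this interval, and 49 of them were set aside by name (the *Zfp*, *H2-* and *Cyp4f* genes and single genes of antigen processing, complement, heat shock and a few other families), which left 78. SAGE-Seq, which counts a short tag cut from the 3′ end of each transcript, was used on hypothalamus RNA from 24 adult male F2 mice bred from B6.CAST-17.1 subcongenic and C57BL/6J parents. The 12 *cast/cast* mice carried CAST/EiJ alleles on both copies of a Chr 17 segment that spans the interval, the 12 *b6/b6* mice carried C57BL/6J alleles there, and both genotypes were *b6/b6* in the rest of the genome. All mice chose between a carbohydrate/protein (C/P) and a fat/protein diet for 10 d, returned to chow, met both diets again and were fasted briefly before the hypothalamus was taken. The *cast/cast* mice came from the high tail of C/P intake (77.8 to 106.6 kcal over 10 d) and the *b6/b6* mice from the low tail (27.4 to 41.0 kcal), so genotype and intake cannot be told apart in a comparison of the 2 groups. Each mouse gave 1 library, and mice are numbered below in the order of their deposition only.

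The interval holds much of the mouse major histocompatibility complex, best known for the genes that present antigen to T cells. Packed between and beside those genes are many others with no role in immunity, several of them needed in every cell, such as genes of RNA processing, ribosomes, chromatin, protein quality control and vesicle traffic. Neighbouring genes here are often only a short distance apart and read from opposite strands.

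In SAGE-Seq each transcript is read at its most 3′ CATG, the site of the enzyme *Nla*III, so a gene's count rests on a stretch of 27 bases. The tag predicted at that site was read from GENCODE transcripts on GRCm38, matched by RefSeq accession and limited to the extent of the deposited transcript, for 75 of the 78 genes. The predicted tags of 10 called genes are given because, where the prediction holds, the counts described below rest on these bases. Counts of single tags were not available to check this. The called genes *AA388235* and *A930015D03Rik* had no matched transcript and so no predicted tag. Capitals mark the *Nla*III site.
Wdr46: CATGtgccttacatcttaactgggtag
1110038B12Rik: CATGagtattagacaaatgaaataaga
Rpp21: CATGccagcggagccagagattcctca
Abcf1: CATGaaggtggcgtgttgccttgatgt
Zbtb22: CATGaaagtgggtggacacaaggtggg
Zbtb12: CATGcctcaaagagcagaagaaaaaga
BC051226: CATGatgctggagtgagctattgtttt
Morc2b: CATGtgttttgggagggggactctggt
Vps52: CATGgtggagctgaagaaacacaagcc
Cchcr1: CATGaccaggatggatcaggctgtagc

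Most of these tags fell in the last exon. In the 3′ UTR lay those of *Wdr46* (chr17:33949622-33949648, plus strand, exon 15 of 15), *Zbtb22* (chr17:33919240-33919266, plus strand, exon 2 of 2), *Zbtb12* (chr17:34896728-34896754, plus strand, exon 2 of 2), *Abcf1* (chr17:35957223-35957249, minus strand, exon 23 of 23) and *Morc2b* (chr17:33135634-33135660, minus strand, exon 2 of 2). Coding exons held those of *Rpp21* (chr17:36256004-36256030, minus strand, exon 4 of 5), *Vps52* (chr17:33966069-33966095, plus strand, exon 20 of 20) and *Cchcr1* (chr17:35528093-35528119, plus strand, exon 11 of 18). Non-coding transcripts held those of *1110038B12Rik* (chr17:34950320-34950346, minus strand, exon 5 of 5) and *BC051226* (chr17:33908849-33908875, minus strand, exon 1 of 2). The tag of *BC051226* was the only CATG in its transcript, and *Rpp21* had 2, while the tag of *Cchcr1* lay 1111 bases from the transcript's 3′ end. None of the 10 tags was found in a transcript of another gene. Over the 75 genes, 47 tags lay in a 3′ UTR and 24 in a coding exon, and 4 also occurred in transcripts of other genes.

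The libraries held 7754202 to 13082873 tag hits on genes. By their median rank correlation with the other libraries, 8 of the 24 libraries stood apart, 4 of each genotype (*cast/cast* mice 1, 4, 5 and 6 and *b6/b6* mice 1, 4, 6 and 12). The threshold of 0.941 parted close values, since *cast/cast* mouse 8 (0.943) was kept and *b6/b6* mouse 1 (0.939) was not. Of 16 hypothalamus markers 14 were measured, and their summed normalized counts overlapped between genotypes (12743 to 30707 for *b6/b6*, 6852 to 36585 for *cast/cast*). Summed markers of the 11 other tissues and cell types looked at overlapped too, but with as few as 1 of 5 markers measured for lymphocytes, 2 of 5 for pituitary and 3 of 5 for blood. Overlap of such wide ranges does not show equal composition. Of all markers only *Tcf7l2*, listed for thalamus, was called (mean 205.7 for *b6/b6*, 105.0 for *cast/cast*). *Ntng1*, also of thalamus, was lower too (log2 fold change -0.53, unadjusted limma *P* = 0.0180), while *Prkcd*, *Lef1* and *Rora* were not (0.044, 0.081 and 0.048). In bulk tissue, fewer cells of a type and less RNA per cell cannot be told apart. The labels give no batch. The paper names experimental cohorts and differing sources of the fat in the diet, but neither is given for single mice. The median study number was 120.5 for *cast/cast* mice but 269.5 for *b6/b6* mice, so that study number was partly confounded with genotype. Whether study number tracks cohort or fat source was not tested.

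The comparison of *cast/cast* with *b6/b6* mice asked which genes of the interval differ in expression between the 2 alleles of the segment. A gene was called, by the study's thresholds, when its unadjusted *P* did not exceed 0.01 and its mean normalized counts (tag hits divided by a library's size factor) differed by a ratio of at least 1.5, and *P* came from limma on log2(normalized count + 1) over all genes. Of the 78 genes, 12 were called (15.4%, against 1.49% of all genes tested). Of these, 8 fell in *cast/cast* mice (10.3%, against 1.01% of all genes) and 4 rose (5.13%, against 0.471%). With Benjamini-Hochberg adjustment over all genes, 8 of the 78 had an adjusted *P* of at most 0.05 (10.3%, against 0.572%), namely 7 that fell (8.97%, against 0.429%) and 1 that rose (1.28%, against 0.143%). In 7 genes the ranges of the 2 genotypes did not overlap (8.97%, against 0.336% of all genes). The median log2 fold change (*cast/cast* minus *b6/b6*) was 0.0023 over the 78 genes and -0.018 over all genes. Outside the CAST segment 87 of 12867 genes were called (0.676%).

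The tags were aligned to reference sequence of the C57BL/6J strain, and the CAST sequence of the tag sites was not used here. A lower RNA level and *cast/cast* tags that failed to align, or that came from another CATG, therefore cannot be told apart at any gene below.

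**Figure D1:**
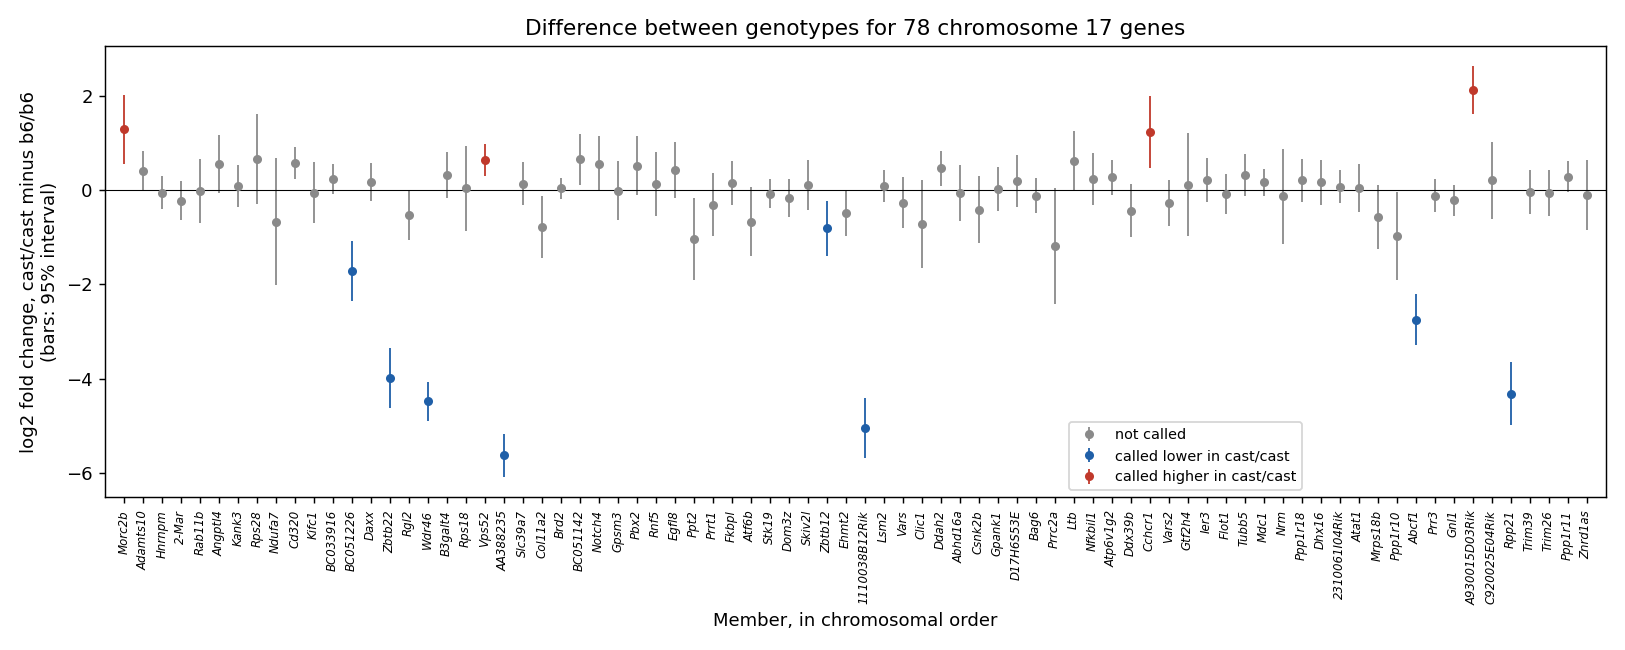
Log2 fold change (*cast/cast* minus *b6/b6*, limma) of the 78 genes in chromosomal order, with bars for the 95% interval and 12 mice per genotype. The 8 genes called lower reach down to -5.62, the 4 called higher reach 2.12, and the 66 others lie between -1.18 and 0.67.

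Genes of RNA processing and translation made up the largest group sorted by function. Of its 19 genes, 4 fell, none rose and 15 were not called. That is 21.1% called, against 1.49% of all genes and 23.0 to 28.0% in the rest of the CAST segment. The median log2 fold change of the group was -0.27, against -0.018 over all genes. Without the 8 libraries that stood apart it was only -0.069, against -0.00051 over all genes, so most of this shift depended on those libraries. All 4 that fell had adjusted *P* of at most 0.05, and in each of them every *cast/cast* mouse was below every *b6/b6* mouse.

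*Wdr46* encodes a WD repeat protein of the nucleolus that takes part in making the small ribosomal subunit. Its normalized counts ran from 140.3 to 470.2 in *b6/b6* mice, with a median of 248.9, and from 5.19 to 17.8 in *cast/cast* mice, with a median of 11.2. Its mean in *cast/cast* mice was 0.0417 times that in *b6/b6* mice, with a log2 fold change of -4.47 ± 0.20 (SE, adjusted *P* = 1.42e-15). The lowest *b6/b6* mouse thus remained far above the highest *cast/cast* mouse.

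*Rpp21* encodes a subunit of ribonuclease P, which trims precursor tRNAs. The *b6/b6* mice had 37.4 to 209.3 normalized counts (median 126.8) and the *cast/cast* mice 0.91 to 12.4 (median 5.34). Its mean was 22.3-fold lower in *cast/cast* mice (log2 fold change -4.32 ± 0.33, SE, adjusted *P* = 1.84e-10).

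*1110038B12Rik* is a non-coding gene that hosts small nucleolar RNAs in its introns. Its normalized counts were 130.1 to 246.3 in *b6/b6* mice (median 166.9) and 0 to 11.4 in *cast/cast* mice (median 4.21), and 1 *cast/cast* mouse had no tag hit. The means differed 32.1-fold (log2 fold change -5.05 ± 0.31, SE, adjusted *P* = 2.00e-12).

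*Abcf1* encodes an ATP-binding cassette protein without a membrane domain that acts in translation initiation. It was the most abundant of the called genes, with 361.1 to 2043 normalized counts in *b6/b6* mice (median 1319) and 62.4 to 236.6 in *cast/cast* mice (median 185.7). Its mean was 7.09-fold lower in *cast/cast* mice (log2 fold change -2.75 ± 0.27, SE, adjusted *P* = 2.79e-08). Unlike the other 3 genes, *Abcf1* kept a sizeable count in every *cast/cast* mouse.

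The 2 most abundant uncalled genes of this group were those of the small-subunit ribosomal proteins *Rps18* and *Rps28*. *Rps18* had a mean of 2052 ± 1581 in the *b6/b6* genotype and 2270 ± 1455 in the *cast/cast* genotype (SD, n = 12 each), with a 95% interval of the log2 fold change from -0.86 to 0.93. *Rps28* had 778.6 ± 469.8 and 1338 ± 961.5, with an interval from -0.29 to 1.62. The predicted tags of both genes also occur in transcripts of 6 other genes each, so tag hits could be split among copies and these values are uncertain.

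**Figure D2:**
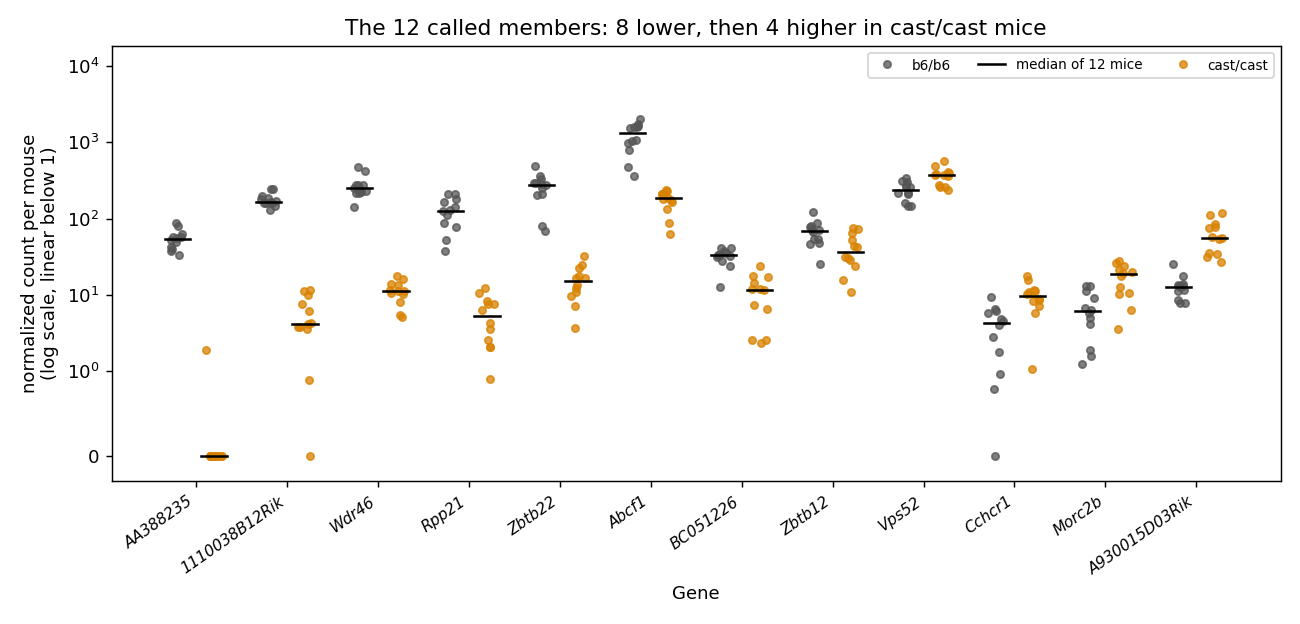
Normalized count of each mouse (log scale, linear below 1) for the 12 called genes, ordered by log2 fold change, with a point per mouse and a line at the median of 12 mice. The genotypes are apart in *AA388235*, *1110038B12Rik*, *Wdr46*, *Rpp21*, *Zbtb22*, *Abcf1* and *A930015D03Rik* and overlap in the other 5.

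Among the 12 genes of chromatin and transcription, 2 fell, 1 rose and 9 were not called, with a median log2 fold change of 0.07. That is 25.0% called, against 1.49% of all genes and 23.0 to 28.0% in the rest of the CAST segment. *Zbtb22* encodes a BTB zinc finger protein, a family that binds DNA and includes many repressors. It had 68.5 to 493.4 normalized counts in *b6/b6* mice (median 278.6) and 3.64 to 32.1 in *cast/cast* mice (median 15.0), with no overlap. The means differed 16.8-fold (log2 fold change -3.98 ± 0.31, SE, adjusted *P* = 3.66e-10).

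*Zbtb12*, of the same protein family, fell far less. Its counts were 25.8 to 122.2 in *b6/b6* mice (median 68.7) and 10.8 to 75.8 in *cast/cast* mice (median 36.5), so that most of the 2 ranges overlapped. The log2 fold change was -0.81 ± 0.28 (SE), a 1.64-fold lower mean, with an unadjusted limma *P* of 0.00721 and an adjusted *P* of 0.451. The call was lost when any 1 of 13 mice was left out, by edgeR (log2 fold change -0.72, *P* = 0.0129), with study number as a covariate (-0.78, *P* = 0.0127), among mice with study numbers 27 to 270 (-0.71, *P* = 0.0597) and without the 8 libraries that stood apart (log2 fold change -0.67, unadjusted limma *P* = 0.0330, adjusted *P* = 0.708). Over all settings its adjusted *P* ran from 0.237 to 0.762.

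*Morc2b*, the first gene of the interval by position, belongs to the MORC family of ATPases that act on chromatin. Its counts were low, 1 to 14 tag hits for *b6/b6*, 3 to 31 for *cast/cast*, or 1.23 to 13.1 (median 6.08) and 3.56 to 28.2 (median 18.5) as normalized counts. It was 2.53-fold higher in *cast/cast* mice, 7 of which exceeded all *b6/b6* mice (log2 fold change 1.29 ± 0.35, SE, unadjusted limma *P* = 0.00112, adjusted *P* = 0.154). Without the libraries that stood apart the adjusted *P* was 0.0226, and over all settings it ran from 0.0226 to 0.296.

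*Brd2*, which reads acetylated histones, and *Pbx2*, a homeodomain factor, were the most abundant uncalled genes of this group. *Brd2* had the narrowest spread of the genes named here, with 980.3 ± 188.7 for *b6/b6*, 989.6 ± 80.9 for *cast/cast* (SD, n = 12 each), and a 95% interval of the log2 fold change from -0.19 to 0.25 that lies within a 1.5-fold difference either way. *Pbx2* had 398.5 ± 133.6 and 666.8 ± 425.2, with an interval from -0.11 to 1.14. *Daxx*, a chaperone of a histone H3 variant, lies between 2 genes that fell, 266 bases from *BC051226* and 585 bases from *Zbtb22*. Its counts of 39.2 ± 13.2 for *b6/b6*, 42.7 ± 9.30 for *cast/cast* overlapped (interval -0.22 to 0.57).

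By RefSeq accession 5 of the 78 genes had only non-coding transcripts, a grouping that was made after the values were seen. Of these, 4 were called (80%, against 1.49% of all genes and 23.0 to 28.0% in the rest of the CAST segment). Besides *1110038B12Rik*, these were *AA388235*, *BC051226* and *A930015D03Rik*, and *BC033916* was not called (mean 660.5 for *b6/b6*, 773.3 for *cast/cast*). *AA388235* had 33.0 to 88.8 normalized counts in *b6/b6* mice (median 53.5), whereas 11 of 12 *cast/cast* mice had no tag hit and the other had 2. Against a floor of 3 tag hits in every *cast/cast* library, its mean was at least 18.3-fold lower (adjusted *P* = 2.70e-16).

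*BC051226* had 12.6 to 41.7 normalized counts in *b6/b6* mice (median 33.2) and 2.37 to 23.8 in *cast/cast* mice (median 11.6). Its mean was 2.98-fold lower in *cast/cast* mice, with a log2 fold change of -1.72 ± 0.31 (SE, adjusted *P* = 0.00185). The ranges overlapped, although 11 of 12 *b6/b6* mice lay above every *cast/cast* mouse.

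*A930015D03Rik* was the gene that rose most. It had 7.72 to 25.2 normalized counts in *b6/b6* mice (median 12.8) and 26.7 to 118.1 in *cast/cast* mice (median 56.3), and the ranges did not overlap. The mean was 4.89-fold higher in *cast/cast* mice (log2 fold change 2.12 ± 0.24, SE, adjusted *P* = 9.24e-07).

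*Cchcr1*, which encodes a coiled-coil protein, also rose, from very low counts. The *b6/b6* mice had 0 to 10 tag hits and the *cast/cast* mice 1 to 17, or medians of 4.30 and 9.57 normalized counts. The mean was 2.45-fold higher and 6 of 12 *cast/cast* mice exceeded all *b6/b6* mice (log2 fold change 1.23 ± 0.38, SE, unadjusted limma *P* = 0.00295, adjusted *P* = 0.289). Its *b6/b6* mean of 3.97 lay below 6.03, the lowest mean over all mice of any gene in the table. *Cchcr1* was thus tested only through its *cast/cast* counts (mean 9.74), so its call is weak support for a difference. In all, the 13 genes not sorted into a functional group held 2 that rose, 2 that fell and 9 that were not called. That is 30.8% called, against 1.49% of all genes and 23.0 to 28.0% in the rest of the CAST segment. At the end of the interval, the antisense gene *Znrd1as* had 10.5 ± 4.12 for *b6/b6*, 10.5 ± 4.63 for *cast/cast* (SD, n = 12 each, interval of the log2 fold change -0.86 to 0.64). Its predicted tag overlaps no annotated exon of another gene. The values listed under the date-like name 2-Mar are shared with a transcript of another chromosome and could not be assigned to 1 gene.

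In membrane traffic and the cytoskeleton, 1 of 12 genes rose and none fell (8.33% called, against 1.49% of all genes). That gene was *Vps52*, a subunit of the tethering complexes that return vesicles to the Golgi and to recycling endosomes. It had 144.8 to 336.1 normalized counts in *b6/b6* mice (median 238.1) and 239.2 to 577.8 in *cast/cast* mice (median 374.2), and 8 *cast/cast* mice exceeded all *b6/b6* mice. The mean was 1.55-fold higher (log2 fold change 0.63 ± 0.17, SE, unadjusted limma *P* = 0.000772, adjusted *P* = 0.116). The ratio was close to the threshold of 1.5, and the call was lost on leaving out *cast/cast* mouse 3, *b6/b6* mouse 1 or *b6/b6* mouse 2, where the log2 fold changes were 0.57, 0.57 and 0.58. It was also lost with libraries rescaled to the same total (0.54, unadjusted limma *P* = 0.0109) and among mice with study numbers 27 to 270 (0.48, unadjusted limma *P* = 0.0194). Without the libraries that stood apart the ratio was 1.83 and the adjusted *P* 0.0161, and over all settings the adjusted *P* ran from 0.0161 to 0.427.

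The uncalled genes of this group included the most abundant of all 78, *Tubb5*, which encodes a beta tubulin. It had 20730 ± 6314 normalized counts for *b6/b6*, 26841 ± 9935 for *cast/cast* (SD, n = 12 each), with a 95% interval of the log2 fold change from -0.14 to 0.76. *Atp6v1g2*, a subunit of the proton pump that acidifies synaptic vesicles, had 2318 ± 793.5 and 2752 ± 755.0 (interval -0.10 to 0.63).

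The 8 genes of metabolism and transport, the 8 of signalling, adhesion and matrix and the 6 of protein folding, ubiquitin and quality control held no called gene by limma. At an unadjusted *P* under 0.05 they held 3, 1 and 0 genes, but the share of all genes past that *P* is not given here for comparison. None of these genes had an adjusted *P* of at most 0.05 (against 0.572% of all genes). On tag hits, edgeR called none of these 22 genes (against 2.79% of all genes) and DESeq2 called 1 (against 2.82%), *Ppt2*, a lysosomal thioesterase that the naming rule did not pick. Its means were 70.8 for *b6/b6* and 33.7 for *cast/cast*, where *b6/b6* mice 6 and 12, both among the libraries that stood apart, had 199.0 and 213.2 and no other *b6/b6* mouse had more than 63.7. Without the libraries that stood apart the means were 44.8 and 39.0, and the log2 fold change was -0.31 in place of -1.04. The median log2 fold changes of the 3 groups were 0.22, 0.35 and -0.0089.

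*Cd320*, the cell surface receptor that takes up vitamin B12 bound to transcobalamin, came closest to a call. It had 125.1 to 288.4 normalized counts in *b6/b6* mice (median 172.6) and 173.3 to 436.0 in *cast/cast* mice (median 275.2), and 5 *cast/cast* mice exceeded all *b6/b6* mice. Its unadjusted limma *P* was 0.00187 (adjusted *P* = 0.214), but its ratio of 1.497 was just under 1.5. The genes with the next lowest *P* were *BC051142*, with means of 38.1 and 63.8 (log2 fold change 0.65, interval 0.11 to 1.19, unadjusted limma *P* = 0.0197), and *Ddah2*, of the enzyme family that breaks down methylated arginine, with means of 150.6 and 213.8 (0.46, interval 0.08 to 0.84, *P* = 0.0204). On tag hits *BC051142* was called higher by edgeR (0.74, unadjusted *P* = 0.00883) and by DESeq2 (0.74, unadjusted *P* = 0.00453). These tools called 2.79% and 2.82% of all genes.

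Other genes of these groups were not called either. *Slc39a7*, which moves zinc out of the secretory pathway, had 888.1 ± 263.4 for *b6/b6*, 1035 ± 508.5 for *cast/cast* (SD, n = 12 each, interval -0.32 to 0.59), and its tag also occurs in a second annotated gene at the same place. *B3galt4*, a galactosyltransferase of ganglioside synthesis that lies 216 bases from *Wdr46*, had 12.8 ± 4.89 and 16.5 ± 7.10 (interval -0.17 to 0.80). *Ppp1r11*, an inhibitor of protein phosphatase 1, had 896.0 ± 294.5 and 1055 ± 192.8 (interval -0.05 to 0.61). *Notch4*, a Notch receptor of endothelium, had 589.5 ± 263.7 and 786.1 ± 287.1 (interval -0.02 to 1.14). Its lowest *b6/b6* counts, 153.2 and 119.6, were those of mice 6 and 12, both among the libraries that stood apart. No other *b6/b6* mouse that did not stand apart had less than 471.2. Without the libraries that stood apart its ratio was 1.003 and its log2 fold change 0.0067 (unadjusted limma *P* = 0.965). *Rnf5*, a ubiquitin ligase of the endoplasmic reticulum, had 443.9 ± 196.0 and 528.2 ± 266.0 (interval -0.56 to 0.80). Its tag lies across an exon of *Gm20463* on the other strand, and whether tags were counted by strand is not given in the sources used here, so hits of these 2 genes may not have been kept apart. *Bag6*, a chaperone for tail-anchored membrane proteins, had 442.3 ± 87.1 and 425.3 ± 140.1 (interval -0.49 to 0.25).

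Of the 66 uncalled genes, 18 had a 95% interval that lay within a 1.5-fold difference either way. For the other 48 the interval reached 1.5-fold or more in at least 1 direction, so a difference of that size was not detectable as present or absent with 12 mice per genotype.

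Some genes that differed stood close to genes that were not called. From *BC051226* to *AA388235*, 9 consecutive genes of the set span 77.2 kb, a stretch picked after the values were seen. By the positions in the paper, *H2-K2*, set aside by name, also lies in this stretch. There, *BC051226*, *Zbtb22*, *Wdr46* and *AA388235* fell, *Vps52* rose, and *Daxx*, *Rgl2*, *B3galt4* and *Rps18* were not called. *Vps52* and *Rps18* are 240 bases apart on opposite strands. *Rgl2*, which is outside the naming rule, activates Ral GTPases and lies between *Zbtb22* and *Wdr46*, had means of 220.5 and 153.3 (interval of the log2 fold change -1.05 to -0.02), and was called lower without the 8 libraries that stood apart (ratio 0.608, log2 fold change -0.79).

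**Figure D3:**
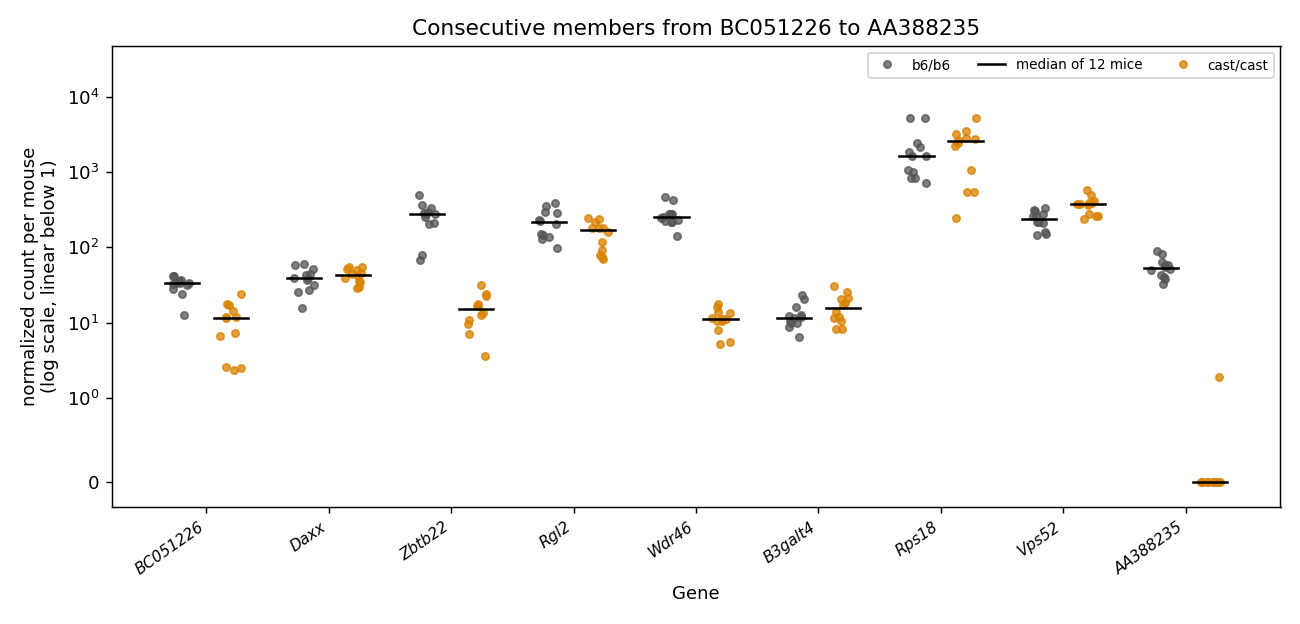
Normalized count of each mouse (log scale, linear below 1) for 9 genes from *BC051226* to *AA388235*, with a point per mouse and a line at the median of 12 mice. The genes are consecutive within the set, without those set aside by name. In *Zbtb22*, *Wdr46* and *AA388235* the genotypes are apart, while in *Daxx*, *Rgl2*, *B3galt4* and *Rps18* they overlap.

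Called genes, 15.4% of the set against 1.49% of all genes, were spread over the interval. Taken in steps of 0.8 Mb by start position, 1 of 1 gene was called from 32.5 to 33.3 Mb, 5 of 22 from 33.3 to 34.1 Mb, 1 of 16 from 34.1 to 34.9 Mb, 2 of 18 from 34.9 to 35.7 Mb, 3 of 18 from 35.7 to 36.5 Mb and 0 of 3 beyond. The largest falls came from 3 of these steps, with *Wdr46*, *Zbtb22* and *AA388235* in one, *1110038B12Rik* in another and *Abcf1* and *Rpp21* in the remaining one. In the rest of the CAST segment, calls were made for 24.7% of the 85 genes next to the interval on its proximal side, 23.0% of 174 genes farther proximal and 28.0% of 25 distal genes, and within the interval for 44.9% of the 49 genes set aside by name. These shares are given as a description and were not compared by a test.

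Some abundant genes varied widely among mice of a genotype. *Ndufa7*, a subunit of respiratory complex I, had 1895 to 6877 normalized counts in *b6/b6* mice (median 4211) and 77.5 to 9724 in *cast/cast* mice (median 5746). Among *cast/cast* mice, 3 had less than any *b6/b6* mouse and 3 had more, so that the ratio of means was 1.11 while the log2 fold change was -0.67 (interval -2.01 to 0.68). The SD of its log2 values was 0.67 for *b6/b6* but 2.41 for *cast/cast* mice. Pooled over both it was 1.77, higher than in 99.6% of all genes, and 1.49 without the libraries that stood apart. The libraries kept there included *cast/cast* mouse 8, with a count of 124.8.

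For *Rps18* and *Rps28* the SD on the log2 scale was 1.17 and 1.25, and without those libraries 0.58 and 0.61. *Rps18* was then called higher in *cast/cast* mice (ratio 1.76, log2 fold change 0.86, limma adjusted *P* = 0.397, with a range over all settings from 0.397 to 0.998). The median SD over the 78 genes was 0.658 with all libraries and 0.443 without the 8, against 0.573 and 0.411 over all genes.

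**Figure D4:**
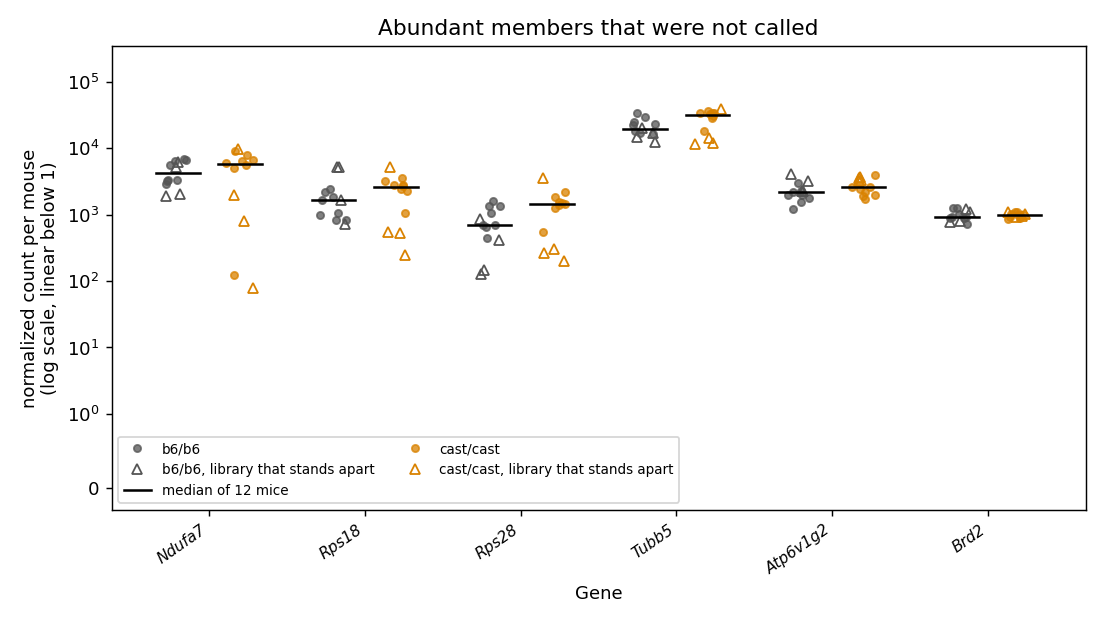
Normalized count of each mouse (log scale, linear below 1) for 6 abundant genes that were not called, with filled circles for 16 libraries, open triangles for the 8 that stood apart and a line at the median of 12 mice. *Rps18* and *Rps28* spread widely in both genotypes and *Ndufa7* in *cast/cast* mice, while *Brd2* keeps to 721.9 to 1271.

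Leaving out all 8 libraries that stood apart gave 6 genes called higher (7.69%, against 0.543% of all genes), 9 called lower (11.5%, against 0.65%) and 10 with an adjusted *P* of at most 0.05 (12.8%, against 0.593%). Of the 12 called with all mice, 11 were called again, and *Zbtb12* was not. When only the 17 mice with study numbers 27 to 270 were compared (11 *cast/cast* and 6 *b6/b6*), 3 genes were called higher (3.85%, against 2.22% of all genes) and 8 lower (10.3%, against 2.15%), shares that for all genes lie above those with all 24 mice. In these mice *Morc2b*, *Vps52*, *Cchcr1* and *Zbtb12* were no longer called, with log2 fold changes of 0.84, 0.48, 0.84 and -0.71, and *Cd320*, *Notch4* and *Prrc2a* were. The 6 *b6/b6* mice compared here included mice 6 and 12, which had the lowest *Notch4* counts and stood apart. *Prrc2a* is outside the naming rule and was chosen after its values were seen. The other 8 genes, *AA388235*, *1110038B12Rik*, *Wdr46*, *Rpp21*, *Zbtb22*, *Abcf1*, *BC051226* and *A930015D03Rik*, were called under every setting tried.

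**Figure D5:**
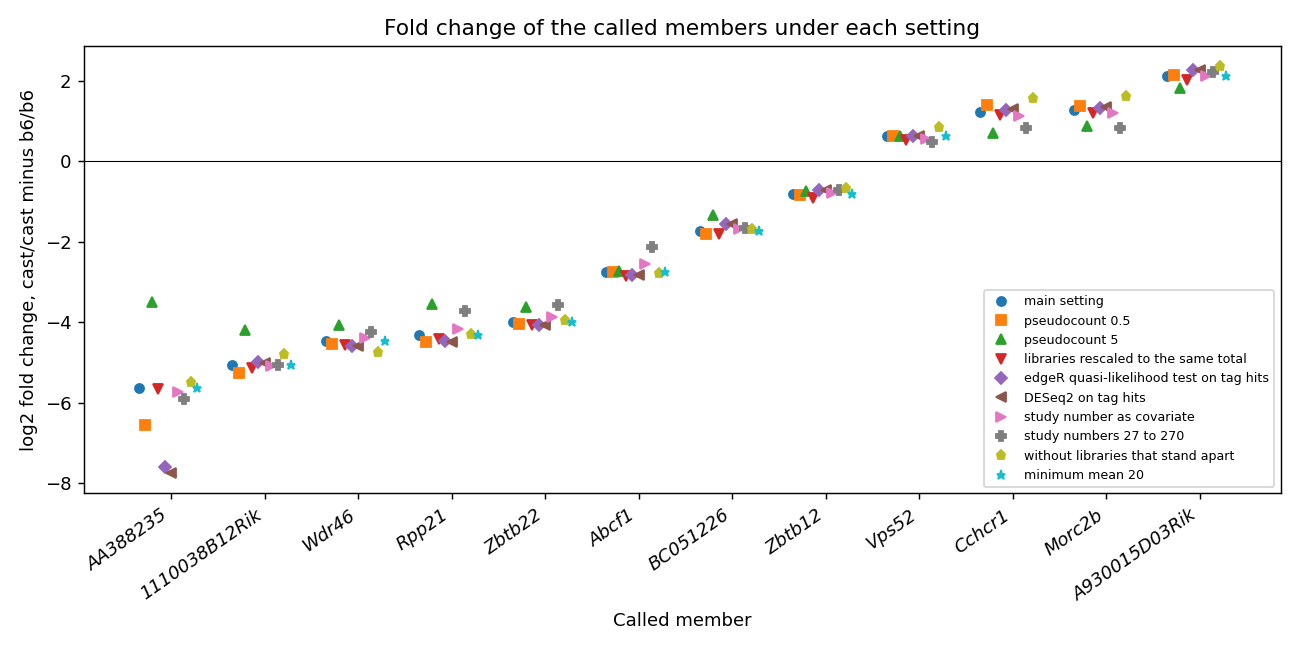
Log2 fold change (*cast/cast* minus *b6/b6*) of the 12 called genes under the main setting and 9 alternatives, each with its own symbol. No gene changes direction, and *AA388235*, at 0 tag hits in 11 of 12 *cast/cast* mice, moves most, from -7.75 to -3.50.

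A second comparison asked whether any of these genes moved with intake among mice of the same genotype. Log2 values were fitted on genotype and on 10 d C/P kcal centred within genotype. Each genotype came from 1 tail of intake, so its range was narrow (77.8 to 106.6 kcal for *cast/cast*, 27.4 to 41.0 kcal for *b6/b6*). This limits what the fit can detect. By limma, 0 of the 78 genes had an adjusted *P* of at most 0.05 (0.0% of all genes), 0 had an unadjusted *P* of at most 0.01 (against 0.572% of all genes), and 3 had one under 0.05, as did 521 of all genes. No other tool was run for this comparison. The 3 genes, named after their values were seen, were *Rps18* (slope -0.08 ± 0.03 log2 units per kcal, SE, unadjusted limma *P* = 0.0114, adjusted *P* = 0.960), *Dhx16*, an RNA helicase of splicing (slope -0.04 ± 0.02), and *Flot1*, a membrane scaffold protein (slope -0.03 ± 0.01). With the share of C/P in total kcal in place of C/P kcal, 2 of the 78 genes had an unadjusted *P* of at most 0.01 (2.56%, against 1.96% of all genes), and an adjusted *P* of 0.05 or less was found for 0. An unadjusted limma *P* under 0.05 was then found for 11, as for 1349 of the 13998 genes. For C/P kcal without the 8 libraries that stood apart, 1 of the 78 had an unadjusted limma *P* of at most 0.01 (0.000217), as had 71 of all genes, and none had an adjusted *P* of at most 0.05.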

How the data were processed

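The deposited signal values are, per the labels and the methods of the study, SAGE tag hits per gene that the authors aligned to RefSeq mRNA and GRCm38 (mm10) and divided by DESeq size factors. The deposited table also holds the authors' own comparison (mean values, fold changes, *P* and adjusted *P*), which was not used. Repeated rows of a gene were used once. In each library 100% of values were whole multiples of a step (tolerance 0.01 tag hits), which gave back the tag hits.

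Genes were tested with limma 3.58.1 (lmFit and trended eBayes), applied to log2(normalized count + 1), over 13998 genes, without a covariate. Alternatives were a minimum mean of 20, pseudocounts of 5 and 0.5, rescaling of libraries to one total, edgeR 4.0.16 and DESeq2 1.42.0 on tag hits, study number as a covariate or limited to 27 to 270, without the 8 libraries that stood apart (median correlation over 3 MAD below the median), without each mouse in turn, the fold change from the log2 scale, and adjusted *P* alone. The 3 tools were tested on simulated data. No 2 libraries agreed within counting noise. Computations used R 4.3.3 and Python 3.11.15. Floors of 3 tag hits cover counting error only, and the lowest mean of a gene in the table was 6.03. Among called genes, the mean of 1 genotype lay below this in *Cchcr1* (3.97 for *b6/b6*). It did so too in *AA388235*, *1110038B12Rik* and *Rpp21* (0.157, 5.58 and 5.70 for *cast/cast*). These genes were tested only through counts of the genotype where they were high.

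Genes were named by a rule: every called gene, genes with adjusted *P* of at most 0.05, the 2 most abundant uncalled genes of each functional group, the 3 uncalled genes with the lowest *P*, the first and last by position, and genes within 1 kb of a called gene. *BC033916*, *Rgl2*, *Gpsm3*, *Ppt2*, *Prrc2a*, *Dhx16* and *Flot1* are outside this rule, picked once their values were known. The genes, functional groups and markers were chosen with earlier results of these data known.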

Additional observations from a re-analysis of the deposited data

How the results depend on the processing

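The numbers of genes called changed by more than 1.5 times under 2 alternatives, both for genes higher in *cast/cast* mice. A minimum mean of 20 left 2 in place of 4, since *Morc2b* and *Cchcr1* were then not tested, and adjusted *P* of at most 0.05 with no minimum ratio gave 1. Leaving out each mouse in turn gave 4 to 6 genes higher, 7 to 9 lower and 8 to 9 with an adjusted *P* of at most 0.05. No called gene changed direction in 394 values under other settings, and 24 of these were no longer past the thresholds, for *Morc2b*, *Vps52*, *Cchcr1* and *Zbtb12* only. The adjusted *P* of *BC051226* reached 0.0695 at its highest. *Zbtb12* lost its call without *cast/cast* mouse 1, 2, 3, 7, 8 or 9 or *b6/b6* mouse 1, 4, 5, 6, 8, 9 or 10, with log2 fold changes from -0.93 to -0.67 over all mice left out. *Cd320* gained one without *cast/cast* mouse 2, 3, 7, 9 or 11 or *b6/b6* mouse 1, 2 or 10 (0.51 to 0.64), *BC051142* without *cast/cast* mouse 6 or 8 (0.55 to 0.78), *Pbx2* without *cast/cast* mouse 12 (0.39 to 0.72) and *Ddah2* without *b6/b6* mouse 7 (0.39 to 0.55). With all mice, *BC051142* was also called by edgeR and by DESeq2 (0.74 in both).

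Among named genes that were not called, the log2 fold change of *Rps18* (0.03) turned to -0.057 with libraries rescaled, -0.19 with study number as a covariate and -0.46 in study numbers 27 to 270, and that of *Brd2* to -0.058 with libraries rescaled. Without the libraries that stood apart, *Pbx2* turned to -0.12, *Slc39a7* to -0.22, *Bag6* to 0.13 and *Znrd1as* to 0.24. *Ndufa7* turned to 0.14 by edgeR and 0.14 by DESeq2, *Rnf5* to -0.25 in study numbers 27 to 270, and *Znrd1as* to 0.0079 with study number as a covariate and 0.31 in study numbers 27 to 270. Leaving out single mice moved *Rps18* from -0.11 to 0.29, *Brd2* from -0.0045 to 0.070, *Bag6* from -0.19 to 0.010 and *Znrd1as* from -0.27 to 0.19. The cause was not tested. Over all genes, 66 were called higher and 142 lower, against 43 and 187 with libraries rescaled (median log2 fold change -0.11), 60 and 331 by edgeR, 82 and 313 by DESeq2, 80 and 232 with study number as a covariate, and 311 and 301 in study numbers 27 to 270. No paired analysis was possible because the mice carry no shared replicate numbers.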

Other observations

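Without the 8 libraries that stood apart, 4 genes of the interval were called that were not called with all mice. These were *Ddah2* (ratio 1.55) and *Rps18* (1.76), higher in *cast/cast* mice, and *Gpsm3* (0.610), a regulator of G protein signalling, and *Rgl2* (0.608), lower. None had an adjusted limma *P* of at most 0.05 there, the lowest being 0.137 for *Gpsm3*. *Prrc2a*, which binds modified RNA, had a log2 SD within genotypes of 1.61, higher than in 99.2% of all genes, with 2.86 to 110.0 normalized counts in *cast/cast* and 11.3 to 252.3 in *b6/b6* mice.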
